A study of Mus musculus with 14 samples.

Results

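The 6 genes described here are the developmental pluripotency-associated genes Dppa2, Dppa3, Dppa4 and Dppa5a, together with Tdh and L1td1, RNAs that are high in mouse embryonic stem (ES) cells. They were taken by name out of the 54446 gene identifiers measured. All 6 passed the filter of a mean of at least 1 TPM (transcript abundance relative to the sum of its library), as did 18232 genes in all. The filter used TPM after the spike-in scaling described below.

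Bulk RNA-seq was measured in E14 mouse ES cells, grown without feeder cells in serum and LIF. Wild-type (WT) cells were taken before (0 h) and after 24, 72 and 144 h with an inhibitor of the kinase mTOR (mTORi). The paper names INK128 or RapaLink-1 for its ES cells and embryos. Such inhibition brings ES cells into a paused state that resembles diapause. Tet1/2 double-knockout (DKO) cells, a line grown from single sorted cells after Cas9 cutting of both genes, were taken before and after 24 and 72 h. Each of the 7 groups holds 2 replicates, 14 libraries in all, 8 of them WT and 6 DKO, and the p-values measure the spread between these libraries. RNA was extracted from a set number of sorted cells, and the study normalized its libraries to ERCC spike-in RNAs so that shifts of the whole transcriptome would show. Values are therefore given here on 2 scales. Deposited TPM have the same sum in every library, and spike-in normalized TPM keep a shift of the whole transcriptome. In bulk samples, fewer cells of a type and less RNA per cell cannot be told apart.

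DPPA2 and DPPA4 are partner proteins with a SAP domain that bind chromatin together, keep poised developmental promoters open to activation and switch on genes of the 2-cell-like programme such as Dux and the Zscan4 cluster. DPPA3 (also called Stella or PGC7) binds UHRF1 and keeps it from bringing the maintenance DNA methyltransferase to chromatin, and is known from oocytes, early embryos and germ cells. DPPA5A (ESG1) is a small RNA-binding protein of the KH family, L1TD1 is an RNA-binding protein that descends from the first open reading frame of a LINE retrotransposon, and TDH is the mitochondrial threonine dehydrogenase through which mouse ES cells turn threonine into glycine and acetyl-CoA.

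In the mm10 coordinates of the deposited files, Dppa4 (ENSMUSG00000058550.15, chr16:48283733-48294237) and Dppa2 (ENSMUSG00000072419.5, chr16:48303908-48319723) are neighbours on the plus strand. Dppa3 (ENSMUSG00000046323.8) lies at chr6:122626410-122630272 on the plus strand. L1td1 (ENSMUSG00000087166.9) lies at chr4:98726734-98738480 on the plus strand. Dppa5a (ENSMUSG00000060461.5) lies at chr9:78367052-78368177 on the minus strand, and Tdh (ENSMUSG00000021953.14) at chr14:63492347-63509092 on the minus strand. The antisense gene Gm17232 lies within the span of Tdh, where reads of the pair are told apart only if strand was used.

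Dppa5a has 2 pseudogene copies on the same chromosome, Dppa5b (chr9:78245550-78246135) and Dppa5c (chr9:78271998-78272583), and reads from the 3 could be assigned to the wrong one. The annotated transcripts of Dppa5b and Dppa5c are identical over all 348 bases. The longest run of identical bases shared by Dppa5a and Dppa5b is 104. The stretch below begins at the start codon of Dppa5a, base 79 of its 619-base transcript, and is shown because it is the part of Dppa5a that the copies resemble. Over 299 aligned positions 288 are identical (96.3%), 9 are substituted and 2 are missing from Dppa5b. The whole alignment of Dppa5a with Dppa5b has 352 columns, of which 314 are identical (89.2%), 27 are mismatched and 11 are gaps. Capitals mark the bases that differ (GENCODE transcripts, 5′ to 3′).
Dppa5a: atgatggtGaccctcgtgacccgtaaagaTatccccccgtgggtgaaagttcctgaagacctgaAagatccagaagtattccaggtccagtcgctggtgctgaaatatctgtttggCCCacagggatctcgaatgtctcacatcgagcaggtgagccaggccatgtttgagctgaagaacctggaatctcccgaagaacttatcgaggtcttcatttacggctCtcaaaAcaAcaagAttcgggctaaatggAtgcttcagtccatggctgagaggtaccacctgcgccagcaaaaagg
Dppa5b: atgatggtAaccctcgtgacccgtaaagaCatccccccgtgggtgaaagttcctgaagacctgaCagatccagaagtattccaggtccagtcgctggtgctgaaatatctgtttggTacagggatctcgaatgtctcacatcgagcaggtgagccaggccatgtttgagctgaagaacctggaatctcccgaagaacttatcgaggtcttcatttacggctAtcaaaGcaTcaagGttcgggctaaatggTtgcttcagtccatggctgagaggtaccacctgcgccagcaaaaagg
Dppa5b ran at 0.136 to 0.495% of the TPM of Dppa5a in the 14 libraries, Dppa5c at 0.148 to 0.529%, and the ratio of Dppa5c to Dppa5b was 1.04 to 1.25. The rows of the copies thus hold a small share of the signal of the 3 genes, and their own values are uncertain.

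Of the 6 genes, L1td1 has an entry in the RefSeq promoter table (GRCm38.p6, the build called mm10). The 250 bases before its RefSeq start, chr4:98726504-98726753 on the plus strand, are shown with CpG dinucleotides, the sites that DNA methyltransferases and TET enzymes act on, in capitals. The end of the window lies just inside the GENCODE gene.
L1td1: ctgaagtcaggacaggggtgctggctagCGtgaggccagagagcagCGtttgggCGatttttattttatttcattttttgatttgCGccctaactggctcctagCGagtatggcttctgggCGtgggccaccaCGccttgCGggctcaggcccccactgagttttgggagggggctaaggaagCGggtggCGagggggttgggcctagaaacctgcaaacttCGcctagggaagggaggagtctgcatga
The window holds 11 CpG and is 57.6% G or C. The median over 32851 promoter windows of the same length was 6 CpG, and 64.4% of them held fewer than L1td1. Both strands were searched for 4 motifs. The KLF4-type letters GGNGTGG occurred at 2 positions in it and in 29.2% of all windows, while CACGTG (E-box, 6.02% of windows), CCATNTT (YY1-type, 12.4%) and TGCCGC (ZFP57-type, 8.68%) had no match. DNA methylation was not analysed here.

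Spike-in normalized values were made by multiplying all TPM of a library by 1 factor, between 1 (WT 144 h replicate 2) and 2.81 (DKO 0 h replicate 1). The factor was 2.11 in both WT 0 h libraries, 1.07 and 1 after 144 h, and it differed most between replicates at DKO 24 h, 2.24 against 1.36. Over all genes tested, the median log2 difference from 0 h was −0.33 at WT 24 h, −0.33 at WT 72 h, −0.83 at WT 144 h, −0.49 at DKO 24 h and −0.12 at DKO 72 h. ES-cell markers (Pou5f1, Sox2, Nanog, Esrrb and Zfp42) summed to 2016 to 2629 deposited TPM in every library. Primitive endoderm markers, a list of 9 genes such as Gata4, Gata6 and Sox17, summed to 545 to 692 deposited TPM at WT 24 h, 191 to 208 at DKO 24 h and 46.5 to 141 in the other groups. The highest levels among them were those of Lama1 and Col4a1, which reached 314 and 272 TPM, while Gata4, Gata6 and Sox17 reached 31.6, 28.1 and 12.03. The 5 neuroectoderm markers, of which Tubb3 alone held 21.6 to 76.4 TPM and Neurog2 and Zic1 no more than 0.0409 and 0.147 in any library, summed to 29.1 to 30.9 at WT 24 h and 24.0 to 27.1 at DKO 24 h, against 63.7 to 84.2 at 0 h and 39.9 to 66.7 in the later groups. The part of both lists in the 24 h values below was not tested. Tet2 was at 15.9 to 22.2 deposited TPM in the DKO libraries and 96.0 to 143 in WT, whereas Tet1 RNA, at 147 to 248 in DKO and 191 to 349 in WT, was called lower in DKO at 24 h on the deposited scale (limma, adjusted p = 0.0239) and in no other of these comparisons.

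The 6 genes differed widely in level. Ranked by deposited TPM among all identifiers of a library, Dppa5a stood between 16 and 84, L1td1 between 162 and 230, Tdh between 335 and 661, Dppa2 between 719 and 1098 and Dppa4 between 733 and 1697. Dppa3 stood apart from them, between 4789 and 18217.

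**Figure D1:**
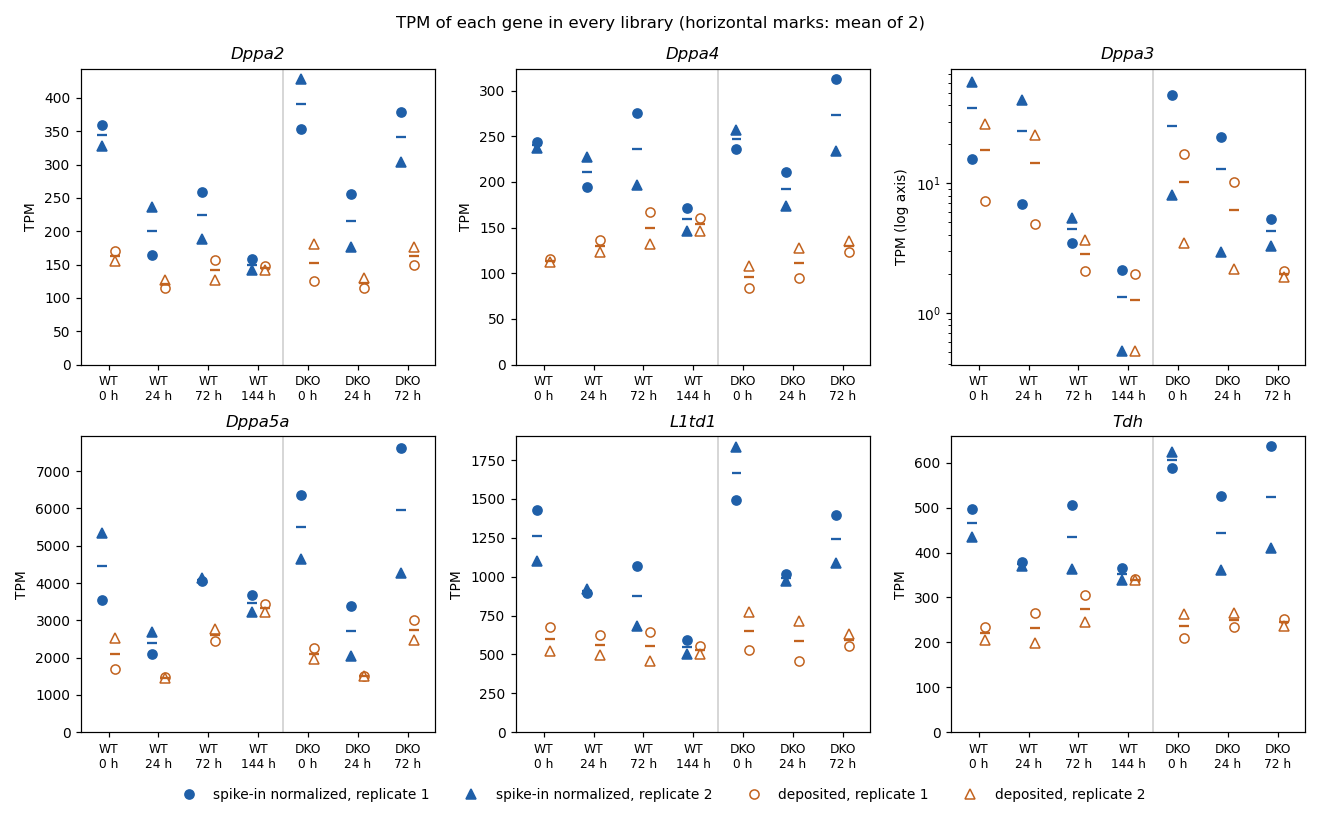
TPM of the 6 genes in each of the 14 libraries, spike-in normalized (filled blue) and deposited (open orange), with circles for replicate 1, triangles for replicate 2 and a bar at the mean of 2; the axis is linear from 0 except for Dppa3, which has a log axis. Spike-in normalized Dppa2 and L1td1 at WT 144 h lie below all other WT groups, deposited Dppa5a is lowest at 24 h in both genotypes, and Dppa3 replicates lie far apart at 0 and 24 h.

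Of the genes for the chromatin proteins, Dppa2 fell in WT cells over the longest treatment. In spike-in normalized TPM it stood at 359.6 and 328 at WT 0 h, 164.5 and 236 after 24 h, 259 and 189 after 72 h and 158 and 141 after 144 h. All treated WT libraries lay below both untreated ones. The log2 difference from 0 h was −1.197 ± 0.28 (SE, 2 libraries per group) at 144 h (limma, adjusted p = 0.0025), −0.80 ± 0.28 after 24 h (adjusted p = 0.072) and −0.63 ± 0.28 after 72 h (adjusted p = 0.16). With the replicate number as a block within each genotype, Dppa2 was also lower at 24 h (limma, adjusted p = 0.017).

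In DKO cells spike-in normalized Dppa2 stood at 353 and 428 TPM at 0 h, 255 and 176 after 24 h and 379 and 304 after 72 h. The 24 h libraries lay below both at 0 h, and those at 72 h overlapped them. The log2 difference was −0.87 ± 0.28 after 24 h (limma, adjusted p = 0.034) and −0.20 ± 0.28 after 72 h (adjusted p = 0.75). The call at DKO 24 h was lost without DKO 0 h replicate 1 (limma, adjusted p = 0.116), DKO 0 h replicate 2 (0.182) or DKO 24 h replicate 2 (0.230). It was also lost, narrowly, without any one library of WT 0 h or WT 144 h, which share the estimate of spread (limma, adjusted p = 0.0508 to 0.0544). In deposited TPM the Dppa2 difference at WT 144 h was −0.17 (limma, adjusted p = 0.469) and that at DKO 24 h −0.30 (adjusted p = 0.217), and neither was called. With the block the deposited difference at WT 24 h, −0.43, was called (limma, adjusted p = 0.0177). The call at DKO 24 h on the spike-in normalized scale was lost without the filter on low values (limma, adjusted p = 0.0822).

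Dppa4, the partner of Dppa2, was called on neither scale without the block. Its spike-in normalized TPM were 243 and 238 at WT 0 h, 195 and 228 after 24 h, 275 and 197 after 72 h and 172 and 147 after 144 h. The libraries at 24 and 144 h lay below both at 0 h, and those at 72 h lay on either side of them. The difference at 144 h was −0.60 ± 0.26 (limma, adjusted p = 0.063, and 0.021 with the block within genotype). In deposited TPM the order was the opposite, 115 and 112.5 at WT 0 h against 161 and 147 after 144 h, a difference of +0.43 ± 0.16 (limma, adjusted p = 0.0796, and 0.00879 with the block). With the block the deposited differences at WT 72 h (+0.38) and DKO 72 h (+0.43), each without overlap, were also called (limma, adjusted p = 0.0159 and 0.0089). In DKO cells the spike-in normalized TPM were 236.5 and 257 at 0 h, 211 and 174 after 24 h and 313 and 234 after 72 h, and no difference from 0 h was called on that scale (limma, adjusted p = 0.337 after 24 h and 0.833 after 72 h).

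Because both genes are scaled by the same factor, the ratio of Dppa2 to Dppa4 TPM within a library does not depend on the spike-in. This ratio was looked at after the values had been seen and has no test. It was 1.48 and 1.38 at WT 0 h, and 0.845 to 1.03 in the 6 treated WT libraries. In DKO cells it was 1.49 and 1.66 at 0 h, 1.21 and 1.02 after 24 h and 1.21 and 1.30 after 72 h. The 4 untreated libraries thus lay above all 10 treated ones. Both DKO libraries lay above both WT libraries at 0 h and at 72 h (0.942 and 0.958 in WT), and the genotypes overlapped at 24 h.

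**Figure D2:**
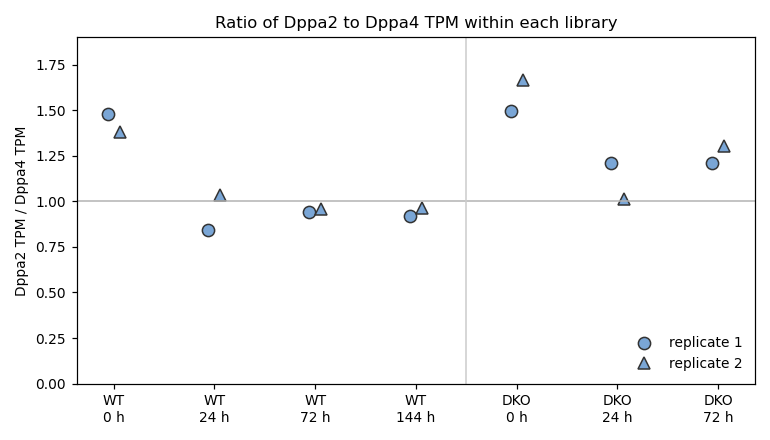
Ratio of Dppa2 to Dppa4 TPM in each library (vertical axis, no unit) for the 7 groups, with circles for replicate 1 and triangles for replicate 2. The 4 untreated libraries sit between 1.38 and 1.66, above the treated DKO libraries (1.02 to 1.30) and the treated WT libraries (0.845 to 1.03).

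Dppa3 had the largest log2 difference of the 6 genes at WT 144 h. The spike-in normalized TPM of Dppa3 were 15.5 and 60.6 at WT 0 h, 6.96 and 44.1 after 24 h, 3.49 and 5.40 after 72 h and 2.14 and 0.507 after 144 h. In DKO cells they were 47.7 and 8.19 at 0 h, 22.8 and 2.94 after 24 h and 5.30 and 3.27 after 72 h. Replicates at 0 and 24 h differed several-fold, with replicate 2 the higher in WT and replicate 1 the higher in DKO, yet both libraries at 72 h in either genotype, and both at WT 144 h, lay below both of the same genotype at 0 h.

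The log2 difference of Dppa3 from 0 h was −3.87 ± 0.83 at WT 144 h on the spike-in normalized scale (limma, adjusted p = 0.0014). It was −2.89 ± 0.89 in deposited TPM (limma, adjusted p = 0.037), which makes Dppa3 the member called lower at 144 h on both scales. At 72 h it was −2.57 ± 0.83 in WT (adjusted p = 0.059) and −2.03 ± 0.83 in DKO (adjusted p = 0.18). With the block within genotype these 2 were called (limma, adjusted p = 0.0023 and 0.015). Leaving out 1 library moved these differences widely. At WT 72 h the difference was −3.52 without WT 0 h replicate 1 (limma, adjusted p = 0.0319) and −1.62 without WT 0 h replicate 2 (adjusted p = 0.408), and at DKO 72 h it was −0.82 without DKO 0 h replicate 1 (adjusted p = 0.727) and −3.23 without DKO 0 h replicate 2 (adjusted p = 0.0488). The WT 144 h difference ran from −4.82 without WT 0 h replicate 1 to −2.92 without WT 0 h replicate 2 and was called without any one library. The WT 72 h difference was also called without any one library of WT 24 h, WT 144 h, DKO 0 h or DKO 24 h (adjusted p = 0.0160 to 0.0468). The WT 144 h call was lost when genes of low level were not filtered out (limma, adjusted p = 0.052). Since 1 is added to each TPM before the log, the fold at these low levels is understated.

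Dppa3 is known from germ cells, and a list of 6 germ cell markers (Prdm1, Tfap2c, Nanos3, Dnd1, Ddx4 and Dazl) summed to 54.0 to 79.0 deposited TPM at WT 0 h and 64.5 to 65.3 at WT 144 h. On that scale their summed level at 144 h lay within the range of the untreated libraries. Over all libraries Tfap2c ran from 5.11 to 52.7 deposited TPM, Dazl from 10.6 to 30.5, Ddx4 from 7.71 to 26.3 and Prdm1 from 2.48 to 15.3. A sum can hide such movements of single genes. In spike-in normalized TPM the sum was 114 to 167 at WT 0 h and 64.5 to 69.9 at WT 144 h, below both untreated libraries. Uhrf1, whose product DPPA3 binds, was also lower. Its spike-in normalized TPM went from 633 and 553 at WT 0 h to 265 and 279 after 24 h, 379.7 and 292 after 72 h and 234 and 210.3 after 144 h, with log2 differences of −1.12 ± 0.26 after 24 h (limma, adjusted p = 0.0097) and −1.41 ± 0.26 after 144 h (adjusted p = 0.000504). At DKO 24 h the difference of Uhrf1 was −1.202 ± 0.26 (limma, adjusted p = 0.0040). At 72 h it was −0.83 in WT and −0.81 in DKO, called only with the block (limma, adjusted p = 0.052 and 0.085, and 0.0085 and 0.0145 with the block). In deposited TPM Uhrf1 remained called lower at WT 24 h and DKO 24 h (limma, adjusted p = 0.0102 and 0.0258) but at WT 144 h only with the block (−0.39, adjusted p = 0.134, and 0.0115 with the block).

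Dppa5a, the most abundant of the 6, was lowest at 24 h in both genotypes, and its later libraries overlapped those at 0 h on the spike-in normalized scale. Its spike-in normalized TPM were 3550 and 5343 at WT 0 h, 2106 and 2684 after 24 h, 4051 and 4126 after 72 h and 3689 and 3228 after 144 h. The 24 h libraries lay below all other WT libraries. The log2 difference at WT 24 h was −0.87 ± 0.33 (limma, adjusted p = 0.099, and 0.013 with the block within genotype). With log2 values centred on the library median, Dppa5a was called lower at 24 h in both genotypes. The centred differences were −0.61 in WT and −0.58 in DKO (limma, adjusted p = 0.022 and 0.028).

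In DKO cells spike-in normalized Dppa5a was at 6353 and 4651 TPM at 0 h, 3391 and 2052 after 24 h and 7630 and 4281 after 72 h. The difference at 24 h was −1.04 ± 0.33 (limma, adjusted p = 0.035), and it was not called without DKO 0 h replicate 1, DKO 0 h replicate 2 or DKO 24 h replicate 2 (adjusted p = 0.28, 0.058 and 0.30), or without the filter on low values (limma, adjusted p = 0.149). Deposited TPM of Dppa5a were 1517 and 1512 at DKO 24 h and 1469 and 1448 at WT 24 h, against 1682 to 2531 in the 4 untreated libraries. All 4 libraries at 24 h lay below all 4 at 0 h on that scale too, with differences of −0.47 ± 0.19 in DKO (limma, adjusted p = 0.0905) and −0.50 ± 0.19 in WT (adjusted p = 0.0666, and 0.0372 with the block). At WT 144 h the scales diverged for Dppa5a, with −0.34 ± 0.33 spike-in normalized (limma, adjusted p = 0.40) and a rise of 0.69 ± 0.19 in deposited TPM (adjusted p = 0.020), from 1682 and 2531 to 3447 and 3228.

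L1td1, which encodes the other RNA-binding protein, fell at WT 144 h. L1td1 stood at spike-in normalized TPM of 1432 and 1098 at WT 0 h, 895 and 919 after 24 h, 1066 and 686 after 72 h and 594 and 504.5 after 144 h. All treated WT libraries were below both untreated ones, and those at 144 h were the lowest. The log2 difference at 144 h was −1.19 ± 0.28 (limma, adjusted p = 0.0023). In DKO cells the values were 1493 and 1835 at 0 h, 1016 and 973 after 24 h and 1400 and 1086 after 72 h, with −0.73 ± 0.28 after 24 h (limma, adjusted p = 0.066, and 0.016 with the block) and −0.42 ± 0.28 after 72 h (adjusted p = 0.42). Deposited TPM of L1td1 lay between 454.5 and 773 in all 14 libraries, and the difference at WT 144 h was −0.17 ± 0.26 (limma, adjusted p = 0.67).

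Tdh, which encodes the metabolic enzyme of the set, was called lower in no comparison on either scale. Its spike-in normalized TPM were 496 and 434.5 at WT 0 h, 380.0 and 369.8 after 24 h, 506 and 364 after 72 h and 365 and 339 after 144 h. The 24 and 144 h libraries lay below both at 0 h, and the difference at 144 h was −0.40 ± 0.28 (limma, adjusted p = 0.23). In deposited TPM Tdh rose from 235 and 206 at WT 0 h to 341 and 339 after 144 h, by 0.625 ± 0.16 on the log2 scale (limma, adjusted p = 0.017). In DKO cells spike-in normalized Tdh was at 588 and 625 TPM at 0 h, 525.5 and 362 after 24 h and 637.5 and 409.5 after 72 h, and it was not called at 24 or 72 h (limma, adjusted p = 0.23 and 0.67).

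**Figure D3:**
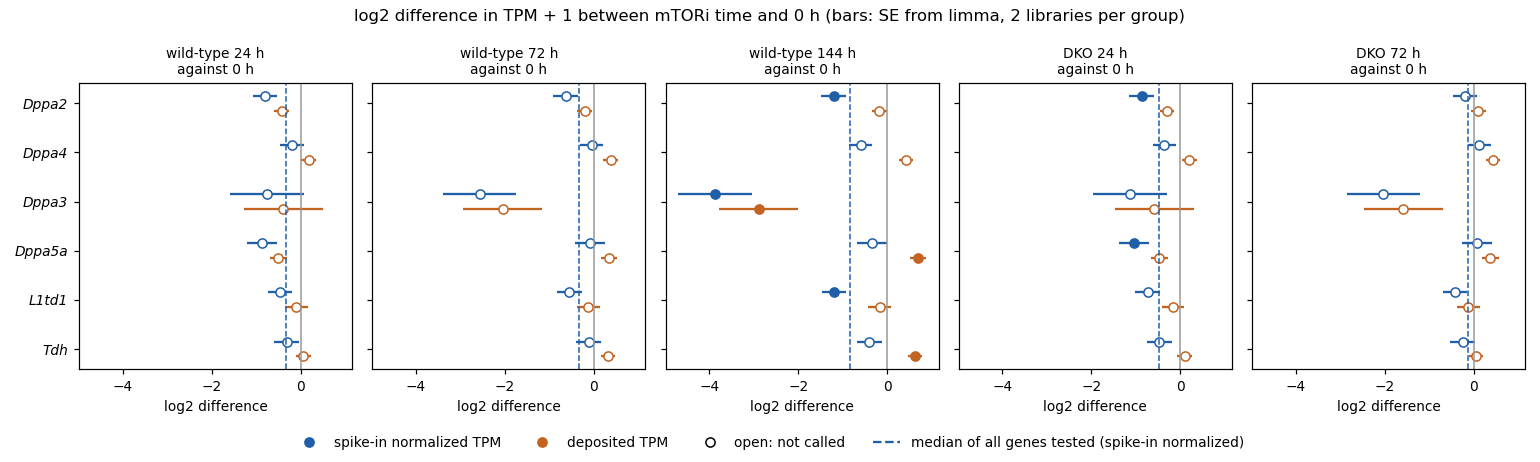
log2 difference in TPM + 1 between each mTORi time and 0 h (horizontal axis) for the 6 genes in the 5 time comparisons, spike-in normalized (blue) and deposited (orange), with SE bars from limma over 2 libraries per group; filled points were called at an adjusted p under 0.05 and the dashed line is the median of all genes tested on the spike-in normalized scale. At WT 144 h Dppa2, L1td1 and Dppa3 are called lower on the blue scale, and on the orange scale Dppa3 is called lower and Dppa5a and Tdh higher.

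Throughout, a gene is called at a limma adjusted p under 0.05 over the 18232 genes tested. On the spike-in normalized scale 0 of the 6 were called at WT 24 h, where 9.98% of all genes were, and 0 at WT 72 h, where 8.29% were. At an unadjusted p under 0.05, 2 of the 6 passed at each of these times. With the block within genotype, Dppa2 and Dppa5a were called lower at 24 h and Dppa3 after 72 h, where the block called 25.7 and 25.4% of all genes lower. At WT 144 h 3 were called, all lower (Dppa2, Dppa3 and L1td1), where 50.5% of all genes were called lower. At DKO 24 h 2 were called lower (Dppa2 and Dppa5a), against 18.7% of all genes, and at DKO 72 h 0 were called, against 3.66%, with 1 of the 6 at an unadjusted p under 0.05. The DKO 24 h count was 0 without DKO 0 h replicate 1, DKO 0 h replicate 2 or DKO 24 h replicate 2, and 5 without DKO 24 h replicate 1. At WT 144 h, DKO 24 h and DKO 72 h the block called 4, 3 and 1 of the 6 lower, against 66.3, 38.1 and 13.2% of all genes. Counts with 1 library left out or without the filter, here and for the lists below, have no share of all genes beside them. They therefore cannot be read as a trait of the genes counted.

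Counted by overlap alone, both treated libraries lay below both at 0 h for 5 of the 6 genes at WT 24 h (all but Dppa3), for 3 at WT 72 h (Dppa2, Dppa3 and L1td1) and for 5 at WT 144 h (all but Dppa5a). The same held for 47.8, 55.3 and 82.1% of all genes. In DKO it held for 5 at 24 h (all but Dppa3) and 2 at 72 h (Dppa3 and L1td1), and for 46.3 and 30.1% of all genes. L1td1 was the only one of the 6 that lay below 0 h without overlap in all 5 comparisons.

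The median log2 difference over the 6 genes was −0.61, −0.33 and −0.90 at WT 24, 72 and 144 h and −0.80 and −0.22 at DKO 24 and 72 h. The all-gene medians beside them were −0.33, −0.33 and −0.83 in WT and −0.49 and −0.12 in DKO. Relative to the all-gene median at WT 144 h, Dppa3 stood at −3.04, Dppa2 at −0.37 and L1td1 at −0.36, and Dppa4, Tdh and Dppa5a above it at 0.23, 0.43 and 0.49. On the deposited scale 1 gene was called lower at WT 144 h (Dppa3) and 2 higher (Dppa5a and Tdh), where 11.7% of all genes were lower and 15.6% higher. At the other 4 times 0 were called on that scale, where 29.9% of all genes were called at WT 24 h, 24% at WT 72 h, 24.9% at DKO 24 h and 26.3% at DKO 72 h, and 2, 2, 1 and 1 of the 6 passed at an unadjusted p under 0.05. The comparisons within a genotype share their 0 h libraries.

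Comparing DKO with WT at the same time called none of the 6 genes on either scale. On the spike-in normalized scale 0.0439, 0.0439 and 0.329% of all genes were called at these 3 times, and at an unadjusted p under 0.05 none of the 6 passed at 0 or 24 h and 1, Dppa2, at 72 h. In deposited TPM 0.598, 1.37 and 4.01% of all genes were called, and none of the 6 passed at an unadjusted p under 0.05. Spike-in normalized Dppa2 after 72 h was at 379 and 304 TPM in DKO against 259 and 189 in WT, without overlap, a difference of 0.62 ± 0.28 with a 95% interval of 0.04 to 1.196 (limma, adjusted p = 0.21). L1td1 after 72 h was at 1400 and 1086 TPM against 1066 and 686, a difference of 0.53 ± 0.28 (interval −0.05 to 1.10, limma, adjusted p = 0.24). Dppa5a at 72 h gave 0.48 ± 0.33 (interval −0.21 to 1.18, limma, adjusted p = 0.32). The all-gene median of DKO against WT at 72 h was 0.49, and in deposited TPM the 3 differences were 0.20, 0.11 and 0.07.

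At 0 h, before treatment, the DKO to WT differences of the 6 genes ran from −0.59 ± 0.83 for Dppa3 to 0.40 ± 0.28 for L1td1, where the all-gene median was 0.29. Of the untreated libraries, those of L1td1 and Tdh did not overlap between the genotypes, 1493 and 1835 TPM against 1432 and 1098 for L1td1 and 588 and 625 against 496 and 434.5 for Tdh, as was the case, with DKO higher, for 52.9% of all genes. At 24 h this held for 1 of the 6 (L1td1) and 11.1% of all genes, and at 72 h for 3 (Dppa2, Dppa5a and L1td1) and 62.6%. The difference between the DKO and WT responses to mTORi was not called for any of the 6 at 24 or 72 h, where 0.00548 and 0% of all genes were called (limma, adjusted p from 0.9996 to 1), and 0 passed at an unadjusted p under 0.05. For Dppa2 the response difference was −0.07 ± 0.39 after 24 h (interval −0.89 to 0.75) and 0.44 ± 0.39 after 72 h (interval −0.38 to 1.26). For Dppa3 the intervals were widest, −2.82 to 2.07 after 24 h and −1.90 to 2.99 after 72 h.

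Genes known to be activated by DPPA2 and DPPA4 were called lower at 24 h, and none was called lower at a later time without the block. The list, put together with earlier results of these data known, held 17 names. Dux carries the symbol Duxf3 in this annotation and was listed under both names, Tcstv1 was under the filter, and 15 genes were tested. At WT 24 h 6 of 15 were called lower, all of them Zscan4 genes, where 8.73% of all genes were called lower. At DKO 24 h 11 of 15 were called lower, against 18.7% of all genes, and 0 were called higher at either time. Without the filter on low values the counts were 0 at WT 24 h and 6 at DKO 24 h. The list median was −1.53 at WT 24 h and −1.80 at DKO 24 h. At WT 72 h, WT 144 h and DKO 72 h 0 were called in either direction, and the list medians were −0.23, −0.55 and 1.23. In deposited TPM 6 of 15 were lower at either 24 h time, against 14.1% of all genes in WT and 13.3% in DKO. On that scale 1 (Duxf3) was higher at WT 144 h, against 15.6%, and 7 were higher at DKO 72 h, against 17.2%. With the block on the spike-in normalized scale 12 were lower at either 24 h time, against 25.7% of all genes in WT and 38.1% in DKO, 1 was lower at WT 144 h, against 66.3%, and 8 were higher at DKO 72 h, where the block called 5.34% of all genes higher. The WT 24 h count was 10 without WT 0 h replicate 1, 0 without WT 0 h replicate 2 and 1 without WT 24 h replicate 1, and the DKO 24 h count was 6 without DKO 0 h replicate 1 or DKO 24 h replicate 2. At DKO 72 h 3 were called without DKO 0 h replicate 1 and 6 without either DKO 24 h library, and at WT 144 h 1 without WT 0 h replicate 1.

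Zscan4d, which encodes a zinc finger protein of the 2-cell-like state, had spike-in normalized TPM of 26.7 and 51.6 at WT 0 h, 5.18 and 9.89 after 24 h, 31.9 and 24.3 after 72 h and 28.7 and 14.4 after 144 h. In DKO cells it was at 26.6 and 12.1 at 0 h, 2.965 and 1.44 after 24 h and 45.9 and 47.6 after 72 h. In both genotypes both 24 h libraries were below all others. The log2 difference was −2.22 ± 0.43 at WT 24 h (limma, adjusted p = 0.0034) and −2.61 ± 0.43 at DKO 24 h (adjusted p = 0.00072), and 1.33 ± 0.43 at DKO 72 h (adjusted p = 0.088, and 0.014 with the block). Zscan4f, Zscan4a and Zscan4b fell at WT 24 h, with log2 differences of −1.96, −2.06 and −1.91 (limma, adjusted p = 0.014, 0.0042 and 0.013). The Zscan4 genes are near-identical copies, as are the Usp17l genes of the list, so that their rows may share reads and do not count as separate observations.

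**Figure D4:**
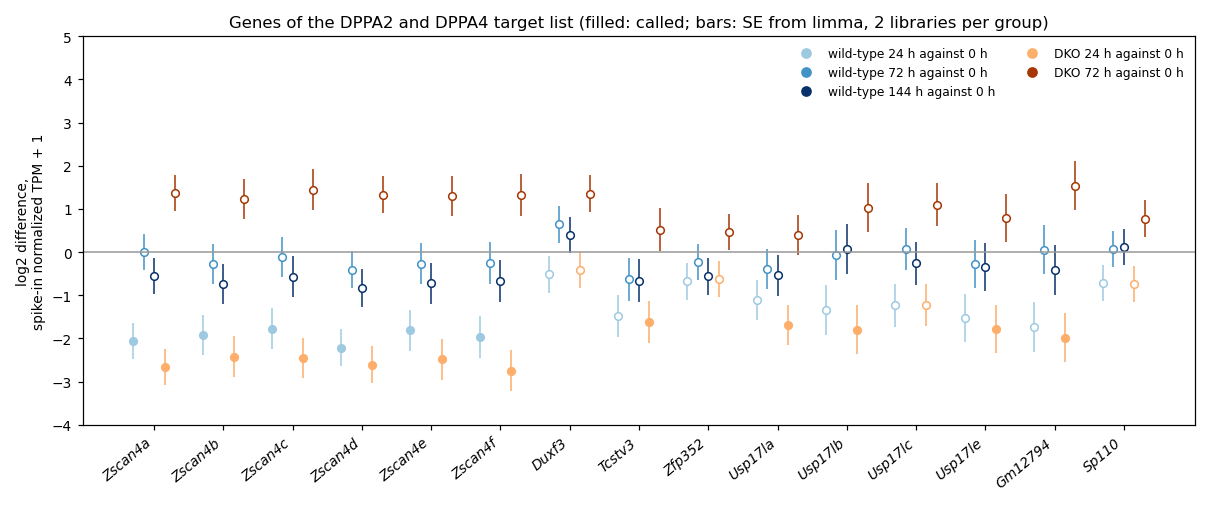
log2 difference from 0 h in spike-in normalized TPM + 1 (vertical axis, SE bars from limma over 2 libraries per group) for the 15 tested genes of the DPPA2 and DPPA4 target list, in WT (blue shades) and DKO (orange shades); filled points were called at an adjusted p under 0.05. The 6 Zscan4 genes are called lower at 24 h in both genotypes, 11 of 15 are called lower at DKO 24 h, and none is called at 72 or 144 h.

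Several genes of glycine and mitochondrial one-carbon metabolism, the pathway that TDH feeds, were called lower at every treated time. Of 10 tested genes of the list, 6, 4 and 9 were called lower at WT 24, 72 and 144 h and 6 and 3 at DKO 24 and 72 h, and 0 were higher on the spike-in normalized scale. The shares of all genes called lower were 8.73, 7.6 and 50.5% in WT and 18.7 and 2.95% in DKO. The list medians were −0.96, −0.68 and −1.17 in WT and −1.11 and −0.62 in DKO. With the block within genotype 6, 7 and 9 were lower in WT and 8 and 4 in DKO. That block called 25.7, 25.4 and 66.3% of all genes lower in WT and 38.1 and 13.2% in DKO. Mthfd2, a mitochondrial folate dehydrogenase, fell at WT 24 h, WT 144 h and DKO 24 h, with log2 differences of −2.68, −3.39 and −4.03 (limma, adjusted p = 2.9e-05, 8.2e-07 and 8.9e-08). Shmt2, which makes glycine from serine in mitochondria, fell at the same times, with −1.41, −1.54 and −2.02 (limma, adjusted p = 0.00406, 0.000504 and 0.000201). Both were also called lower at 72 h. Mthfd2 had −2.87 in WT and −2.83 in DKO (limma, adjusted p = 3.7e-05 and 1.9e-05). Shmt2 had −1.32 and −1.21 (limma, adjusted p = 0.0088 and 0.022). Gcsh and Mthfd1l fell at WT 144 h, with −1.802 and −1.27 (limma, adjusted p = 0.000113 and 0.00172). In deposited TPM Gcsh was also called lower there (−0.78, limma, adjusted p = 0.00070) and Mthfd1l was not (−0.25, adjusted p = 0.085). Gldc and Gcat are named after their values were seen. Gldc, of the glycine cleavage system, had −0.92 at WT 24 h and −1.17 at DKO 24 h (limma, adjusted p = 0.039 and 0.0072), and neither difference was called in deposited TPM (−0.55 and −0.60, adjusted p = 0.123 and 0.104). Gcat, which acts on the product of TDH, had −0.46 ± 0.30 at WT 144 h (limma, adjusted p = 0.20) and was not called. In deposited TPM Mthfd2 and Shmt2 were also called lower at each of these times, and 5, 5 and 3 of the 10 were lower at WT 24, 72 and 144 h and 5 and 4 at DKO 24 and 72 h, against 14.1, 11.4, 11.7, 13.3 and 9.06% of all genes. Higher on that scale were Mthfd1 at WT 24 h (0.27, limma, adjusted p = 0.033, named after its values were seen) and Gcat at WT 144 h (0.53, adjusted p = 0.00297). Without the filter the DKO 72 h count was 1. The list's WT 24 h count was 1 or 2 without either WT 0 h library or WT 24 h replicate 1, its WT 72 h count 1 without either WT 0 h library or WT 72 h replicate 2, and its DKO 72 h count 1 without either DKO 0 h library or DKO 72 h replicate 2. It was 10 at DKO 24 h without DKO 24 h replicate 1, and at WT 144 h leaving out no single library moved it by over 1.5 times.

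Of 11 genes of DNA methylation, 3, 0 and 8 were called lower at WT 24, 72 and 144 h and 5 and 0 at DKO 24 and 72 h, with 0 higher and medians of −0.39, −0.46, −0.83, −0.76 and −0.26. The shares of all genes called lower were 8.73, 7.6, 50.5, 18.7 and 2.95%. With the block within genotype 5, 2, 10, 7 and 2 were lower at these times and 0 higher. That block called 25.7, 25.4, 66.3, 38.1 and 13.2% of all genes lower. Without the filter on low values 1, 5 and 2 were called at WT 24 h, WT 144 h and DKO 24 h. In deposited TPM 5, 0 and 0 were lower at WT 24, 72 and 144 h and 4 and 0 at DKO 24 and 72 h, against 14.1, 11.4, 11.7, 13.3 and 9.06% of all genes, and 1, 1, 2, 2 and 3 were higher, against 15.8, 12.6, 15.6, 11.6 and 17.2%. Tet1 was called higher on that scale at all 5 treated times, by 0.79 at WT 144 h (limma, adjusted p = 0.00029), Tet2 at WT 144 h (0.42, adjusted p = 0.033), and Tet3 at DKO 24 and 72 h (0.44 and 0.48, adjusted p = 0.028 and 0.020). Besides Uhrf1, the de novo methyltransferase genes Dnmt3a and Dnmt3b fell at WT 24 h, with −1.46 and −0.98 (limma, adjusted p = 0.011 and 0.036). Dnmt3l fell at WT 144 h by 1.40 (limma, adjusted p = 0.00046) on the spike-in normalized scale and had −0.38 in deposited TPM (adjusted p = 0.20, and 0.035 with the block). The WT 24 h count was 0 without either WT 0 h library or WT 24 h replicate 1 and 5 without either DKO 24 h library. It was 2 to 5 at WT 144 h without any one library of WT 0 h or WT 144 h, and 1 or 2 at DKO 24 h without either DKO 0 h library or DKO 24 h replicate 2 and 9 without DKO 24 h replicate 1. Where 0 were called, 1 was at WT 72 h without any one library of DKO 24 h or DKO 72 h and 2 were at DKO 72 h without either DKO 24 h library. In DKO against WT on the spike-in normalized scale 1 of the list was called at each time, Tet2, at −1.94, −2.52 and −2.06 at 0, 24 and 72 h (limma, adjusted p = 0.015, 0.00029 and 0.0023). In deposited TPM Tet1 was also called lower at 24 h (−0.51, limma, adjusted p = 0.024) and Uhrf2 higher at 72 h (0.52, adjusted p = 0.041, named after its values were seen). On the spike-in normalized scale none of the list was called at 0 h without any one library of WT 0 h or WT 72 h or without DKO 0 h replicate 2, or at 72 h without either WT 72 h library, and 2 were called at 72 h without either DKO 24 h library.

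Of the KH-family relatives of Dppa5a, Ooep, which lies within 100 kb of it, and Khdc3, which encode oocyte and early-embryo RNA-associated proteins, were tested, while Khdc1a, Khdc1b and Khdc1c were under the filter. Khdc3 fell at WT 24 h and WT 144 h, with −1.15 and −0.98 (limma, adjusted p = 0.014 and 0.0089), and Ooep at WT 144 h, with −0.71 (adjusted p = 0.048). Both were called lower at DKO 24 h, with −0.88 for Ooep and −0.85 for Khdc3 (limma, adjusted p = 0.038 and 0.041). In deposited TPM only Khdc3 at WT 24 h remained called lower among these (−0.77, limma, adjusted p = 0.0064). The WT 24 h call was lost without either WT 0 h library or WT 24 h replicate 1, both DKO 24 h calls without any one library of WT 0 h, WT 72 h, WT 144 h or DKO 0 h or without DKO 24 h replicate 2 or the filter on low values, and at least 1 of the WT 144 h calls without any one library of WT 0 h, WT 24 h, WT 72 h, WT 144 h or DKO 0 h or without the filter. The shares of all genes called lower were 8.73% at WT 24 h, 50.5% at WT 144 h and 18.7% at DKO 24 h.

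Among 25 other ES-cell-enriched genes, which include Dnmt3l and Khdc3 of the lists above, 1, 1 and 16 were called lower at WT 24, 72 and 144 h and 4 and 3 at DKO 24 and 72 h, with 0 higher. The shares of all genes called lower were 8.73, 7.6 and 50.5% in WT and 18.7 and 2.95% in DKO. Without the filter on low values 0 were called at WT 72 h, DKO 24 h and DKO 72 h. Their medians were −0.26, −0.25, −0.82, −0.64 and −0.37. At WT 144 h Fbxo15, Nanog and Tfcp2l1 fell on the spike-in normalized scale, with −1.69, −1.64 and −1.21 (limma, adjusted p = 0.0040, 0.0013 and 0.0043). In deposited TPM, 1 of the 25 was lower at that time, Nanog (−0.61, limma, adjusted p = 0.0416), and 4 were higher, named after their values were seen, Klf4, Tdgf1, Sox2 and Klf5 (1.39, 0.91, 0.64 and 0.54). At WT 24 and 72 h 2 and 1 were lower and 5 and 3 higher on that scale, and at DKO 24 and 72 h 1 and 5 were lower and 5 and 2 higher. Of all genes 14.1, 11.4, 11.7, 13.3 and 9.06% were lower on that scale at the 5 times and 15.8, 12.6, 15.6, 11.6 and 17.2% higher. The WT 144 h count was 4 to 10 without any one library of WT 0 h or WT 144 h, and the WT 24 h and WT 72 h counts were 0 without either WT 0 h library and 3 without either DKO 24 h library. The WT 24 h count was also 0 without WT 24 h replicate 1 and 2 without DKO 0 h replicate 1, and the WT 72 h count was 0 without either WT 72 h library. At DKO 24 h 0 were called without DKO 0 h replicate 1 or DKO 24 h replicate 2, 1 without DKO 0 h replicate 2 or any one library of WT 0 h or WT 144 h, 6 or 8 without any one library of WT 24 h or DKO 72 h, and 14 without DKO 24 h replicate 1. At DKO 72 h 0 were called without either DKO 0 h library or DKO 72 h replicate 2, and 1 without any one library of WT 0 h, WT 72 h or WT 144 h. Of the other genes with a Dppa name, Dppa1 and the pseudogene Dppa3-ps were under the filter, at no more than 0.36 and 0.56 deposited TPM. Dppa5b and Dppa5c were not called at any time without the block. With the block within genotype they were lower at WT 24 h (−1.34 and −1.19, limma, adjusted p = 0.0066 and 0.011) and WT 144 h (−1.03 and −0.90, adjusted p = 0.012 and 0.020) on the spike-in normalized scale.

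Within 100 kb of the 6 genes, 21 other genes were tested, and 2, 3 and 14 of them were called lower at WT 24, 72 and 144 h and 4 and 1 at DKO 24 and 72 h, against 8.73, 7.6, 50.5, 18.7 and 2.95% of all genes. In deposited TPM 4, 4 and 6 were lower and 1 each higher in WT, and 2 and 2 were lower and 2 and 3 higher in DKO, where the shares of all genes lower on that scale were 14.1, 11.4 and 11.7% in WT and 13.3 and 9.06% in DKO and those higher 15.8, 12.6, 15.6, 11.6 and 17.2%. The interval around Dppa3 holds the pluripotency genes Nanog and Gdf3 and Apobec1, a cytidine deaminase gene. Apobec1 was called lower at all 5 treated times on both scales. At WT 144 h Apobec1 fell by 2.36 and Gdf3 had −1.003 (limma, adjusted p = 0.00037 and 0.0057). In deposited TPM Apobec1 and Nanog were lower there (−1.41 and −0.61, limma, adjusted p = 0.0018 and 0.042) and Gdf3 was not (0.02, adjusted p = 0.93). Kank4, which lies past the end of L1td1 on the other strand, fell by 1.68 at WT 144 h (limma, adjusted p = 0.0010), with −0.72 in deposited TPM (adjusted p = 0.0499). Patj, upstream of L1td1, was called higher at WT 24 h on both scales, by 1.64 spike-in normalized and 1.85 in deposited TPM (limma, adjusted p = 0.0480 and 0.0089). Beside Dppa5a, the RNA helicase gene Ddx43 went from 8.20 and 9.19 deposited TPM at WT 0 h to 19.05 and 20.3 after 144 h, a rise of 1.09 (limma, adjusted p = 0.00035), and its spike-in normalized difference was not called (adjusted p = 0.70). Near Tdh, Fam167a fell at WT 144 h by 1.06 on the spike-in normalized scale (limma, adjusted p = 0.015) but was not called in deposited TPM (−0.33, adjusted p = 0.19), and the antisense Gm17232, at no more than 2.3 deposited TPM, was not called (adjusted p = 0.47).

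The 6 genes did not share a single pattern once each library was centred on its median over the genes tested. Over the 14 libraries, which share their factors and groups, Pearson's r was highest for Dppa4 and Tdh (0.72) and for Dppa2 and L1td1 (0.69). It was 0.27 for the partners Dppa2 and Dppa4. For Dppa3 r was negative with Tdh (−0.70), Dppa4 (−0.55) and Dppa5a (−0.43) and near 0 with L1td1 (−0.14) and Dppa2 (−0.11), and Dppa5a with L1td1 gave −0.23.

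By the same measure, the 3 genes most like each member were Gm33489, Hnrnpd and Luc7l3 for Dppa2 (r = 0.94, 0.93 and 0.92) and Tmeff1, Smarcc1 and Bcor for Dppa4 (0.95, 0.95 and 0.94). For Dppa3 they were Nkx2-9, Fbxo15 and Fgfr2 (0.96, 0.94 and 0.94), and for Dppa5a Ccdc116, Elavl3 and Zfp266 (0.96, 0.95 and 0.95). For L1td1 they were Anapc13, Lst1 and Cdk9 (0.93, 0.93 and 0.92), and for Tdh Spidr, Mutyh and Ift57 (0.90, 0.88 and 0.88). These r are the highest of 18232 genes over 14 libraries and carry no test. Several of these genes are at low levels, with mean deposited TPM of 1.63 for Gm33489, 1.25 for Lst1 and 1.62 for Nkx2-9.

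Fgfr2 encodes a fibroblast growth factor receptor. Its deposited TPM were 6.6 and 21.1 at WT 0 h, 7.5 and 28.5 after 24 h, 2.2 and 5.6 after 72 h and 3.7 and 2.8 after 144 h. In DKO cells they were 10.1 and 3.6 at 0 h, 12.25 and 3.6 after 24 h and 4.1 and 2.0 after 72 h. That its replicates stood in the same order as those of Dppa3 follows from its choice by correlation with Dppa3 over these libraries.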

How the data were processed

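RNA-seq of 14 libraries in 7 groups of 2 was used. Per the labels, groups are genotype and hours of mTORi. The authors trimmed reads with cutadapt 2.4, aligned them to mm10 with STAR 2.7.3a and quantified GENCODE genes with StringTie 2.0 (versions per the submitters' processing notes). The paper's Methods give later versions of STAR and StringTie. The Dppa5 transcript sequences shown come from a later GENCODE release than the one the paper names. The authors deposited TPM per gene, without ERCC entries, each library summing to 1e+06. TPM keep no depth, so no counting error was computed. The paper reports sequencing depth in an extended data figure, which was not used here. Entries were summed per gene identifier.

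Spike-in normalized TPM are deposited TPM times 1 factor per library, read as the median ratio to the study's own normalized table, of which a part was at hand. That table's values were used for nothing else. log2(TPM + 1) was fitted for 18232 genes, those with a mean spike-in normalized TPM of 1 or more, and the same genes were used on the deposited scale. The fit was by limma 3.58.1 (R 4.3.3, trend, 7 groups together, two-sided, Benjamini-Hochberg over all genes tested), and adjusted p under 0.05 is called. Fold changes on the log2(TPM + 1) scale understate changes of low genes. The study tested expression with DESeq2, which needs counts and was not run.

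The study processed the time points of each biological replicate in parallel. Deviations of same-numbered libraries correlated at 0.222 to 0.341 within DKO and at 0.0622 to 0.398 within WT (5 of 6 pairs above 0.1), and at −0.501 to 0.116 between genotypes, so the block was set within genotype. Alternatives were deposited TPM, library median centring, a pseudocount of 0.1, no filter, 2 forms of the block and leaving out each library. All 6 genes, their list genes (up to 4 called per list and comparison, by size of change), their 3 most correlated genes and tested genes within 100 kb are named. Members and lists were chosen with earlier results of these data known.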

Additional observations from a re-analysis of the deposited data

How the results depend on the processing

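Which of the 6 genes were called depended on the scale and on other settings. On deposited TPM the WT 144 h count stayed at 3 but with Dppa5a and Tdh higher and Dppa2 and L1td1 not called, and DKO 24 h had 0. Median centring called 1, 0 and 1 of the 6 genes at WT 24, 72 and 144 h and 1 and 0 at DKO 24 and 72 h. These were Dppa5a, lower at WT 24 h and DKO 24 h, and Dppa3, lower at WT 144 h. Without the filter the counts were 0, 0, 2, 0 and 0, and 0, 0, 4, 2 and 0 with a block on the replicate number across all libraries. Under the replicate block within each genotype they were 2, 1, 4, 3 and 1, and with that block on deposited TPM, chosen after the data were seen, 2, 2, 4, 0 and 1. Of these settings, shares of all genes called are given above only for deposited TPM and for the block within genotype on the spike-in normalized scale. The other counts cannot be set against such a share. Leaving out each library gave 0 to 2, 0 to 1, 3 to 4, 0 to 5 and 0 to 1. DKO against WT and the response differences had 0 in every setting run, and a pseudocount of 0.1 kept direction and call in 60 of 60.

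On deposited TPM, with or without the block, signs turned at WT 24 h for Dppa4 (0.18) and Tdh (0.0634), at WT 72 h for Dppa4 (0.38), Dppa5a (0.34) and Tdh (0.31), at WT 144 h for Dppa4 (0.43), Dppa5a (0.69) and Tdh (0.625), at DKO 24 h for Dppa4 (0.20) and Tdh (0.0936), and at DKO 72 h for Dppa2 (0.11) and Tdh (0.0585). In DKO against WT they turned at 0 h for Dppa2 (−0.11) and Dppa4 (−0.25) and at 72 h for Dppa4 (−0.20) and Tdh (−0.16), and in the response at 24 h for Dppa2 (0.12), Dppa4 (0.0221), Dppa5a (0.0276) and Tdh (0.0301). With centring they turned at WT 24 h for Dppa4 (0.0775), at WT 72 h for Dppa4 (0.24), Dppa5a (0.20) and Tdh (0.18), at WT 144 h for Dppa4 (0.24), Dppa5a (0.50) and Tdh (0.43), and at DKO 24 h for Dppa4 (0.0947). In DKO against WT centring turned Dppa2 (−0.13) and Dppa4 (−0.27) at 0 h, Dppa2 (−0.0135) at 24 h, and Dppa4 (−0.29), Dppa5a (−0.0232) and Tdh (−0.26) at 72 h. In the response it turned Dppa2 (0.12), Dppa4 (0.0171), Dppa5a (0.0213) and Tdh (0.0243) at 24 h and Dppa4 (−0.0171), Dppa5a (−0.0313) and L1td1 (−0.0678) at 72 h. The cause was not tested.

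Leaving out each library turned signs within these ranges. At WT 24 h Dppa3 ran from −2.001 to 0.50. At WT 72 h Dppa4 ran from −0.29 to 0.19, Dppa5a from −0.39 to 0.20 and Tdh from −0.35 to 0.12. At DKO 24 h Dppa3 ran from −2.426 to 0.17. At DKO 72 h Dppa4 ran from −0.0780 to 0.34, Dppa5a from −0.34 to 0.49 and Tdh from −0.57 to 0.0722. In DKO against WT at 0 h Dppa4 ran from −0.0237 to 0.10 and Dppa3 from −1.79 to 0.61. At 24 h Dppa2 ran from −0.16 to 0.37, Dppa4 from −0.28 to 0.00301, Dppa3 from −2.27 to 0.33, Dppa5a from −0.21 to 0.51 and Tdh from −0.0517 to 0.49. At 72 h Dppa4 ran from −0.0253 to 0.45, Dppa3 from −0.33 to 0.23 and Tdh from −0.0685 to 0.57. In the response at 24 h Dppa2 ran from −0.34 to 0.19, Dppa3 from −1.68 to 0.92, Dppa5a from −0.53 to 0.19 and Tdh from −0.44 to 0.10, and at 72 h Dppa4 from −0.0621 to 0.42, Dppa3 from −0.66 to 1.75, Dppa5a from −0.25 to 0.58, L1td1 from −0.19 to 0.44 and Tdh from −0.45 to 0.185. The WT 144 h calls of Dppa2, Dppa3 and L1td1 held without any one library.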

Other observations

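Each library's spike-in factor equals 76 divided by a whole number between 27 (DKO 0 h replicate 1) and 76 (WT 144 h replicate 2), with a deviation below 4e-06 in all 14 libraries. Both WT 0 h libraries have 36, and the steps of 1 near the lowest whole numbers move a level by more than steps near the highest. How the whole numbers were obtained was not tested.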
